A study of Mus musculus with 29 samples.

Results

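Refed livers with hepatocytes that express Prox1 K556R were set against refed wild-type (WT) livers and described across all expressed genes. Libraries were chosen by their genotype and feeding labels alone, which gives 14 of the 29 liver libraries of the series: 8 K556R livers and 6 WT livers. Each of the 2 batches named in the labels holds 4 K556R and 3 WT refed libraries. Prox1 encodes a homeobox protein that hepatocytes use as a transcription factor, and the K556R allele puts arginine in place of the lysine to which SUMO is attached. The allele is a conditional knock-in switched on in hepatocytes by Cre at 8 weeks of age in male mice, which then ate a diet with 45% fat and 20% fructose for 18 weeks. Both groups shared sex, diet and the collection window of ZT 15 to 17, counted in hours from lights on, and WT livers carry the unmutated protein under the same regime. The sources used here do not tell how Cre was delivered or whether WT mice received it, so the allele and exposure to Cre cannot be told apart where only K556R mice received it. Messenger RNA was captured by its poly-A tail from whole liver, so a lower level cannot be told apart from fewer cells of the type that makes the transcript.

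SUMO is a small protein that is joined to lysines of other proteins and taken off again, often on transcription factors, where it can change which partners a factor binds. Prox1 represses and tunes metabolic genes together with nuclear receptors and corepressors. In a refed liver, insulin favours glucose use and fat synthesis and holds back fat burning and autophagy, the digestion of cell content in lysosomes. Type I and type III interferons act through receptors and JAK kinases on genes that carry an interferon-stimulated response element, and hepatocytes respond to type I interferons.

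In refed K556R livers all 35 tested interferon-stimulated effectors lay above the WT level, and no single gene passed the test of the model fitted to all libraries. Of 24 tested autophagy genes 20 lay below the WT level, and of 25 tested respiratory chain genes 24 did, by small amounts. Lists and their members were chosen with earlier results of these data known, so counts of list members here and below are a description. In edgeR's quasi-likelihood test, with group and batch terms over all 29 libraries, 0 of 15603 genes (0%) passed a Benjamini-Hochberg adjusted p of 0.05. At an unadjusted p under 0.05 stood 571 genes with a higher level in K556R (3.66% of those tested) and 748 with a lower one (4.79%), and the smallest adjusted p was 0.0688, shared by 4 genes. Without K556R replicate 4 of batch 1 the same test called 15 genes higher and 5 lower, the most for any single library left out. It called fewer when WT replicate 1 of batch 2 was left out as well. DESeq2, run as an alternative on the same design, called 31 genes higher (0.199% of 15595) and 13 lower (0.0834%). Counted without a model, 26 genes (0.167%) lay higher in every K556R liver than in every WT liver of the same batch, in both batches, and 35 (0.224%) lay lower in that way. Differences were small: over 11647 genes with a mean log2 level of at least 1, the median size of the difference was 0.084 on the log2 scale, and 26 genes differed by more than 2-fold, 18 of them higher.

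**Figure D1:**
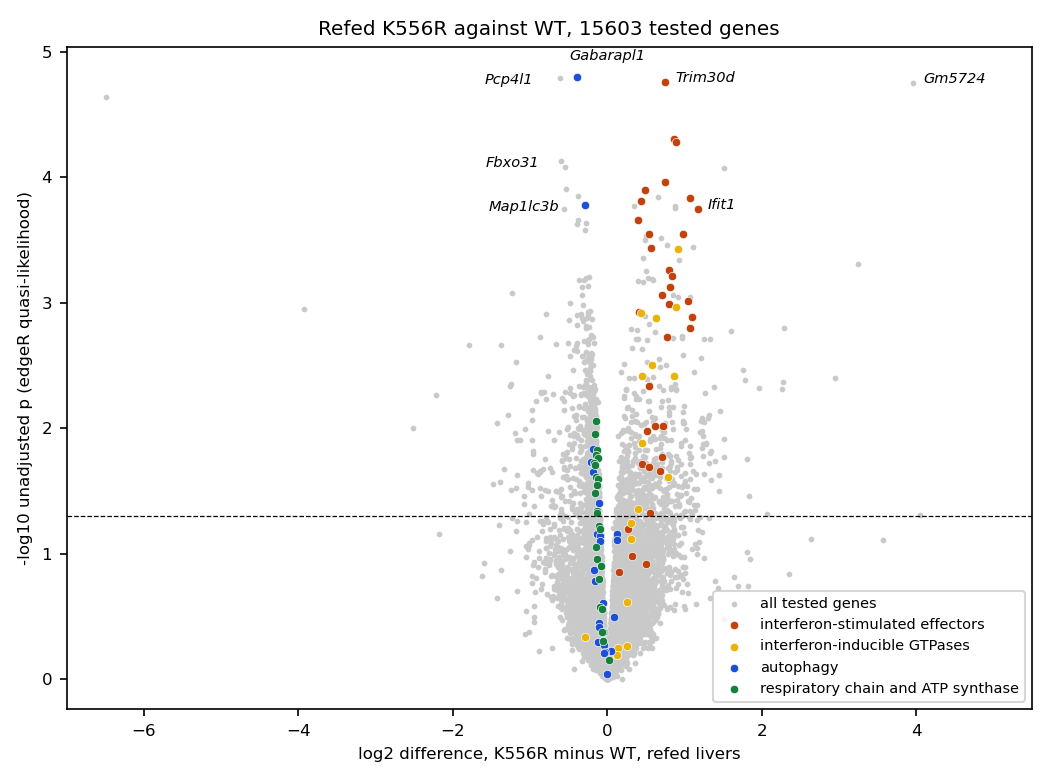
Each point is a tested gene, with the log2 difference of K556R minus WT refed livers on the x axis and the negative log10 of the unadjusted edgeR p on the y axis; the dashed line marks p of 0.05. Interferon-stimulated effectors and interferon-inducible GTPases (red, yellow) lie mostly on the right, and autophagy and respiratory chain genes (blue, green) mostly left of 0 at small differences; 0 genes passed the adjusted threshold.

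The libraries held 14385218 to 27278251 counts each, with no detectable difference between genotypes (exact two-sided permutation within batches, p = 0.656 over 1225 assignments, where the smallest possible p is 0.000816). Batch made up 99.6% of the first principal component of the refed libraries, genotype 48.8% of the third, which held 3.89% of the variance. A pair of libraries stood apart. K556R replicate 4 of batch 1 was low for drug-metabolism, fibrosis and macrophage genes. WT replicate 1 of batch 2 was the farthest library on the second component, and on the first after batch means were removed. The differences within batch 1 and within batch 2 had the same sign in 5244 of 11640 genes (45.1%, Pearson r = -0.37 across genes, which are not independent), and in 6395 (54.9%, r = 0.085) without that pair. Medians of gene lists are therefore given with their values in each batch. The labels number the replicates without saying that each is another animal, so the p-values rest on library-to-library spread, which may be technical. Albumin (Alb) at a median of 64207 CPM in K556R and 65665 in WT, and transthyretin (Ttr) at 4859 and 5375 CPM, fit the label of liver. CPM is a gene's count as a part of the normalised library total, scaled to a fixed sum.

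Prox1 (ENSMUSG00000010175, mm10 chromosome 1, 190118035 to 190170714) ran from 119.7 CPM through a median of 149 to 203 in K556R livers and from 125 through 168 to 184 in WT. The ranges overlapped in both batches. The log2 difference of K556R minus WT was -0.14 (SE 0.09, edgeR adjusted p = 0.707), 0.02 in batch 1 and -0.30 in batch 2. Counts summed over a gene do not tell the mutated codon from the normal one, so they do not check the allele. Among 15 tested genes of Prox1 and its reported partners, 4 stood above 0 and 11 below, 0 reached an unadjusted p under 0.05, and their median was -0.036 (0.029 in batch 1, -0.078 in batch 2) against -0.0013 over all tested genes. Hnf4a, a nuclear receptor that sets hepatocyte identity, differed by -0.10 (SE 0.07), and Rora, a nuclear receptor of the clock and of lipid genes, by 0.16 (SE 0.10). Of 22 tested genes for attaching or removing SUMO, 1 was higher and 1 lower at an unadjusted p under 0.05: Senp1, a SUMO protease, by 0.20 (SE 0.09), and Pias4, a SUMO ligase, by -0.20 (SE 0.09). Those counts are near the shares of all tested genes, 3.66% higher and 4.79% lower. The median of that list was 0.11 in batch 1 and -0.046 in batch 2.

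Interferon-stimulated effectors were the list with the highest median difference of the 34 pathway lists. Since these genes lay on one side of 0 together, the stretch ahead of the start is shown for 4 of them or of the related GTPases. The 4 were taken from genes that hold the match described next, so they do not show how common it is. The stretches are 100 bases long, read 5′ to 3′ along the gene from the 250 bases before the RefSeq start (GRCm38.p6), with each match to GAAANNGAAA, the core of the interferon-stimulated response element, or to its reverse complement in capitals. Adjoining matches share their capitals.
Trim30d, chr7:104507850-104507949, minus strand: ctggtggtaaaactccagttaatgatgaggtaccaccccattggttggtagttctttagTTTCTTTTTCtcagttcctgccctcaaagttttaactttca
Ifit1, chr19:34640759-34640858, plus strand: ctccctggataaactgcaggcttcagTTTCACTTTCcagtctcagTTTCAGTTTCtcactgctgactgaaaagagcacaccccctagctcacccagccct
Oas1a, chr5:120907526-120907625, minus strand: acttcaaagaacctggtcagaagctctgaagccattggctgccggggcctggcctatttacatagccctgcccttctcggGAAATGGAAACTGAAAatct
Gbp3, chr3:142559944-142560043, plus strand: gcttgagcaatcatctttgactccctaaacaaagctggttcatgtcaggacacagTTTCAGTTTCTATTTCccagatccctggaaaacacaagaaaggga

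Of 35 tested effector genes 25 had a promoter in the RefSeq table, and 14 of these (56%) held the match on either strand in those 250 bases, and so did 9 of 10 interferon-inducible GTPases. Over all 32851 promoters of the same length the share was 2.98%, and over the 11066 tested genes that matched by symbol it was 3.36%. The match was held by 3 of 17 genes of interferon receptors, JAK-STAT and IRF factors, by 3 of the 11 matched genes among the 15 named on the higher side and by 0 of 10 on the lower side. Among the respiratory chain and autophagy genes described further on, 2 of 17 (11.8%) and 1 of 19 (5.26%) held it. A match is a string of letters and was not tested as a binding site.

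All 35 tested interferon-stimulated effectors lay above 0, with a median log2 difference of 0.70, and 31 of them had an unadjusted p under 0.05 with a higher level, against 3.66% of all tested genes. DESeq2 called 15 of the 35 higher. The list was chosen with earlier results of these data known, so these counts are a description. The list's median was 0.86 in batch 1 and 0.38 in batch 2. The mean log2 CPM of the list ran from 3.83 to 4.83 in K556R and from 3.49 to 3.64 in WT livers of batch 1, and from 3.45 to 3.95 and from 3.20 to 3.42 in batch 2, without overlap in either. Summed over the list, which weights its most abundant genes, K556R livers of batch 1 held 1366, 1432, 1528 and 917 CPM and WT livers of that batch 657, 730.5 and 761 CPM. K556R livers of batch 2 held 740.04, 989, 903 and 704.5 CPM and WT livers 803, 662 and 636 CPM. By that sum the K556R livers of batch 1 were all higher than WT, while in batch 2 K556R replicates 1 and 4 lay below WT replicate 1. The lowest K556R library of batch 1 was replicate 4, and without it and WT replicate 1 of batch 2 the median over both batches was 0.72 with 32 of 35 genes at an unadjusted p under 0.05.

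Trim30d (mm10 chromosome 7, 104470014 to 104507849) belongs to the tripartite motif family, many of whose members interferon raises. It ran from 5.84 through 8.57 to 17.4 CPM in K556R and from 4.00 through 5.83 to 7.98 CPM in WT. Within each batch every K556R liver was above every WT liver. The log2 difference was 0.75 (SE 0.15, edgeR adjusted p = 0.0688, DESeq2 adjusted p = 0.00444), 0.89 in batch 1 and 0.58 in batch 2.

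Usp18, a protease that strips ISG15 from proteins and dampens the interferon receptor, ran from 9.53 through 17.3 to 36.0 CPM in K556R and from 7.63 through 9.39 to 12.7 CPM in WT, without overlap inside either batch. Its difference was 1.07 (SE 0.25, edgeR adjusted p = 0.122). Ifit1, which binds viral RNA lacking the host cap mark, ran from 8.18 through 17.3 to 43.1 CPM in K556R and from 3.97 through 9.51 to 12.5 CPM in WT. These ranges did not overlap within a batch either, and its difference of 1.17 (SE 0.27, edgeR adjusted p = 0.122) was the largest of the list. Isg15, the ubiquitin-like tag itself, was the fourth effector separated in both batches, at 0.81 (SE 0.22, edgeR adjusted p = 0.212), and is named after its values were seen.

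The other effectors, among them sensors of viral RNA, overlapped between genotypes in at least 1 batch. Ddx58 (RIG-I), a sensor of viral RNA, ran from 30.6 through 37.4 to 57.6 CPM in K556R and from 20.7 through 32.0 to 35.8 CPM in WT. Its groups overlapped in batch 1 and did not in batch 2, and the difference was 0.44 (SE 0.10, edgeR adjusted p = 0.122). Dhx58 (LGP2), a regulator of that sensor, differed by 0.54 (SE 0.13), and Eif2ak2 (PKR), a kinase that halts translation on double-stranded RNA, by 0.40 (SE 0.09). Oas1a, from the 2′-5′ oligoadenylate synthetases that arm RNase L, differed by 0.98 (SE 0.24), and Oasl1, a related protein that restrains Irf7 translation, by 0.74 (SE 0.17). Xaf1, a partner of the apoptosis inhibitor XIAP, differed by 0.88 (SE 0.19), Rtp4, a chaperone of receptors, by 0.86 (SE 0.18) and Parp14, an ADP-ribosyltransferase, by 0.49 (SE 0.11). In DESeq2 each of these 8 genes passed an adjusted p of 0.05, and in edgeR their adjusted p ran from 0.116 to 0.148. Rtp4 differed by 1.34 in batch 1 and by 0.32 in batch 2.

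Interferon-inducible GTPases, which attack the membranes around intracellular microbes, stood above 0 in 17 of 18 tested genes, and the median difference was 0.42 (batch 1 0.61, batch 2 0.24), with 10 higher at an unadjusted p under 0.05. The mean log2 CPM of the list overlapped in both batches. It ran from 3.22 to 4.21 in K556R and 3.13 to 3.37 in WT in batch 1, and from 2.69 to 3.58 and 2.53 to 3.22 in batch 2. The median of the summed CPM was 764 in K556R and 481 in WT livers of batch 1, and 434 and 460 in batch 2. Gbp3 ran from 9.06 through 17.0 to 32.4 CPM in K556R and from 5.56 through 10.6 to 15.0 CPM in WT, with overlap in both batches. Its difference was 0.91 (SE 0.23, edgeR adjusted p = 0.158, DESeq2 adjusted p = 0.0215), and Igtp differed by 0.63 (SE 0.18), Irgm1 by 0.44 (SE 0.12) and Gbp6 by 0.90 (SE 0.25).

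Upstream of these genes the picture was uneven. Of 18 tested receptors, kinases and IRF factors, 10 stood above 0, 3 were higher and 1 lower at an unadjusted p under 0.05, and the median was 0.035 (0.0057 in batch 1, 0.053 in batch 2). Among the higher genes were Irf7, the factor that amplifies interferon transcription, at 0.78 (SE 0.19, DESeq2 adjusted p = 0.0215), and Irf9, a DNA-binding factor of the interferon response, at 0.40 (SE 0.12). Socs1, a brake on JAK kinases, stood at -1.2 (SE 0.44), -0.28 in batch 1 and -1.88 in batch 2. Its WT values ran from 0.317 through 0.538 to 4.19 CPM, against 0.327 to 0.677 CPM in K556R. Of 16 tested genes of MHC class I presentation, 12 stood above 0, with a median of 0.088. In batch 1 alone 14 stood above 0 (median 0.17) and in batch 2 alone 6 (median -0.028). Nlrc5, the transactivator of these genes, was the member at an unadjusted p under 0.05, at 0.21 (SE 0.10).

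Transcripts of interferons themselves were near 0. Of 18 type I interferon genes in the table, 14 had 0 counts in all 14 refed libraries, among them Ifnb1 and Ifna4, and the others summed to 21 counts over the K556R livers and 6 over the WT livers. The type III genes Ifnl2 and Ifnl3 were at 0 in all 14 libraries. Ifng had at most 4 counts in a K556R library and at most 2 in a WT library. A count of 0 allows up to 3 counts, or 0.209 CPM in the shallowest library. Siglech, which marks plasmacytoid dendritic cells, the main makers of type I interferon, differed by 0.22 (SE 0.38).

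**Figure D2:**
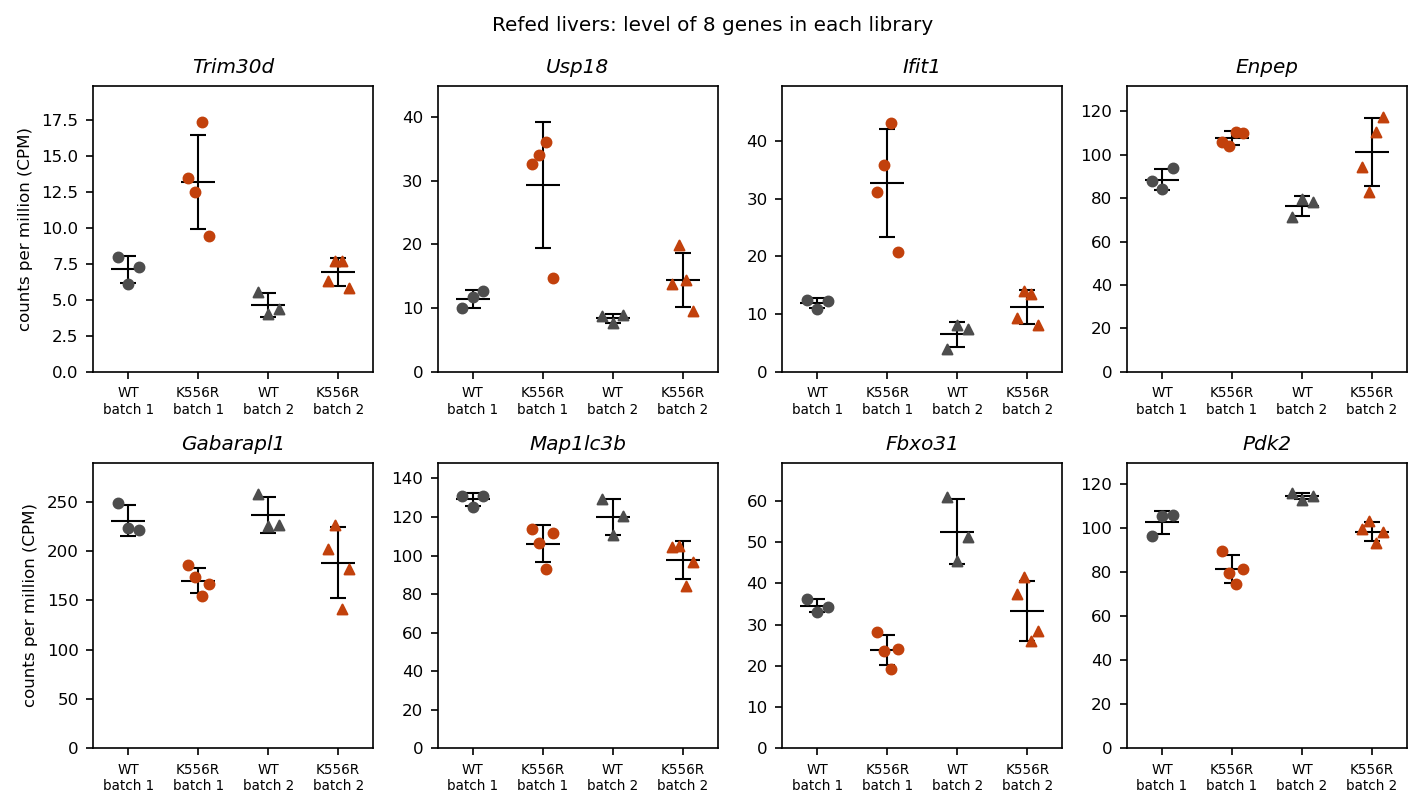
Level of 8 genes in each refed library, in CPM on a linear axis from 0, by genotype and batch; points are libraries, and bars give the mean and SD of the 3 WT or 4 K556R libraries of a batch. Trim30d, Usp18, Ifit1 and Enpep lie higher in K556R in both batches, Map1lc3b, Fbxo31 and Pdk2 lower without overlap, and Gabarapl1 lower with 1 K556R library of batch 2 among the WT values.

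An autophagy gene had the smallest p of the whole comparison. Gabarapl1 (mm10 chromosome 6, 129533160 to 129542346), an ATG8 protein that is joined to lipid on the growing autophagosome, ran from 142 through 178 to 227 CPM in K556R and from 221 through 226 to 258 CPM in WT. The groups did not overlap in batch 1, and in batch 2 the highest K556R liver, at 227 CPM, lay between WT livers. The log2 difference was -0.39 (SE 0.07, edgeR adjusted p = 0.0688, DESeq2 adjusted p = 0.00444), -0.44 in batch 1 and -0.33 in batch 2. With each of the 14 libraries left out in turn its edgeR adjusted p ran from 0.037 to 0.214. Map1lc3b, which encodes the autophagosome protein LC3B, ran from 84.3 through 105 to 114 CPM in K556R and from 111 through 127 to 131 CPM in WT, lower in every K556R liver of either batch. Its difference was -0.29 (SE 0.07, edgeR adjusted p = 0.122, DESeq2 adjusted p = 0.0226).

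Of 24 tested autophagy genes 20 stood below 0, 6 of them at an unadjusted p under 0.05 against 4.79% of all tested genes, and 0 stood higher at that level. The median was -0.099, with -0.067 in batch 1 and -0.0998 in batch 2, and without the pair of libraries that stood apart 3 genes were lower at that level. Map1lc3a, another ATG8 protein, differed by -0.22 (SE 0.09), and Atg7, the enzyme that activates ATG8 proteins, by -0.18 (SE 0.07). The members above 0 reached at most 0.13, for Atg12, named here for its value.

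Fbxo31, a subunit of a ubiquitin ligase of the cell cycle, was lower in every K556R liver of either batch: from 19.3 through 27.1 to 41.5 CPM in K556R and from 33.1 through 40.8 to 61.0 CPM in WT. Its difference was -0.60 (SE 0.13, edgeR adjusted p = 0.122, DESeq2 adjusted p = 0.0138). Fbxo31 (mm10 chromosome 8, 121549440 to 121578806) lies 11554 bases from Map1lc3b (121590361 to 121598760). Zcchc14, on the other side of Map1lc3b, differed by -0.015 (SE 0.07), and those were the tested genes within 100000 bases. This neighbourhood was looked at after the values were seen.

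Pcp4l1, a small calmodulin-binding protein of the PCP4 type, shared the smallest adjusted p and ran from 12.9 through 16.3 to 24.7 CPM in K556R and from 18.7 through 23.5 to 42.4 CPM in WT. The groups did not overlap in batch 1 and did in batch 2, and its difference was -0.62 (SE 0.12, edgeR adjusted p = 0.0688, DESeq2 adjusted p = 0.00487). Adra1a, the alpha-1A adrenergic receptor through which noradrenaline drives glucose output, ran from 4.84 through 6.77 to 8.67 CPM in K556R and from 7.21 through 10.1 to 12.1 CPM in WT. Its groups overlapped in batch 1 and not in batch 2, and the difference was -0.55 (SE 0.12, edgeR adjusted p = 0.122, DESeq2 adjusted p = 0.0181). Gpc1, a heparan sulfate carrier on the cell surface, differed by -0.56 (SE 0.13), Lims2, an adaptor of integrin adhesions, by -0.38 (SE 0.09), and Sun2, a protein of the inner nuclear membrane, by -0.29 (SE 0.07), each past the DESeq2 threshold and each at an edgeR adjusted p between 0.122 and 0.147. Mfsd3 differed by -0.38 (SE 0.09), with a DESeq2 adjusted p of 0.035. L3hypdh at -0.23, Dusp23 at -0.27, Cntrl, a centriole protein, at -0.30, and Bcl9l, a coactivator of beta-catenin, at -0.36 passed neither test.

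Genes of mitochondrial respiration lay slightly and evenly lower. Of 25 tested nuclear genes of the respiratory chain and ATP synthase, 24 stood below 0, and 13 of them had an unadjusted p under 0.05 against 4.79% of all tested genes. The median difference was -0.13, with -0.13 in batch 1 and -0.12 in batch 2, and the same over both batches without the pair of libraries that stood apart, where 11 genes stood lower at that level. Summed over the list, K556R livers ran from 6233 through 6545 to 7037 CPM and WT livers from 6637 through 7033 to 7684 CPM. Those ranges overlapped, and 0 members passed either adjusted test. Uqcrc2, a core protein of complex III, ran from 181 through 196 to 212 CPM in K556R and from 201 through 218 to 230 CPM in WT, and differed by -0.15 (SE 0.05, edgeR adjusted p = 0.428). Uqcrc1 of the same complex differed by -0.16 (SE 0.06), Atp5a1 of ATP synthase by -0.14 (SE 0.05) and Ndufv1 of complex I by -0.14 (SE 0.06). The share of counts from mitochondrial genes did not detectably differ (6.11% in K556R against 5.94% in WT, exact two-sided permutation within batches, p = 0.807).

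Pdk2, the kinase that shuts pyruvate dehydrogenase and so keeps glucose carbon out of mitochondria, ran from 74.6 through 91.4 to 103 CPM in K556R and from 96.6 through 109 to 116 CPM in WT. Every K556R liver lay below every WT liver of its batch, and the difference was -0.28 (SE 0.07, edgeR adjusted p = 0.136, DESeq2 adjusted p = 0.0294). Among the 35 genes lower in this way, 3 with mitochondrial roles were picked out after their values were seen. Ppargc1b, a coactivator of mitochondrial biogenesis, ran from 1.63 through 2.55 to 3.22 CPM in K556R and from 2.82 through 3.76 to 4.04 CPM in WT, a difference of -0.49 (SE 0.14). Sirt3, a mitochondrial deacetylase, differed by -0.17 (SE 0.05) and Sdha, a subunit of complex II, by -0.12 (SE 0.05). None of the 3 passed an adjusted test (edgeR adjusted p from 0.258 to 0.481).

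Genes of fatty acid oxidation and ketogenesis stood below 0 in 24 of 27 cases, 6 of them at an unadjusted p under 0.05, with a median of -0.11. The batches were unlike: the median was -0.25 in the first and 0.025 in the second. Cpt2, which takes long-chain fatty acids into the mitochondrial matrix, differed by -0.15 (SE 0.06), and Eci1, an isomerase of unsaturated chains, by -0.19 (SE 0.07). Lipe, hormone-sensitive lipase, ran from 8.79 through 10.96 to 15.0 CPM in K556R and from 12.5 through 14.6 to 18.3 CPM in WT, with overlap in batch 2, and differed by -0.39 (SE 0.09, edgeR adjusted p = 0.136, DESeq2 adjusted p = 0.0362). Of 19 tested genes of lipid droplets and lipolysis 16 stood below 0, 6 at an unadjusted p under 0.05, and the median was -0.32 in the first batch against -0.03 in the second. Without the pair of libraries that stood apart 3 of these were lower at that level.

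Fat and sterol synthesis had unlike medians in the 2 batches, and for fat synthesis this changed with the libraries that stood apart. Of 20 tested genes of fatty acid synthesis 15 stood above 0 and 6 were higher at an unadjusted p under 0.05, yet the median was -0.021 in batch 1 and 0.48 in batch 2. Elovl6, which lengthens palmitate, ran from 221 through 443 to 678 CPM in K556R and from 109 through 311 to 414 CPM in WT, and differed by 0.80 (SE 0.28, edgeR adjusted p = 0.421). It differed by 0.24 in batch 1 and by 1.23 in batch 2. Angptl8, an insulin-induced inhibitor of lipoprotein lipase, ran from 57.6 through 139 to 279 CPM in K556R and from 35.6 through 71.1 to 153 CPM in WT and differed by 0.97 (SE 0.28, edgeR adjusted p = 0.286). In the list of triglyceride assembly and lipoproteins, whose highest difference was 0.97, 20 of 26 tested genes stood below 0. At an unadjusted p under 0.05 stood 5 lower and 1 higher, against 4.79% and 3.66% of all tested genes. The median of that list was -0.071 (-0.13 in batch 1, -0.08 in batch 2). For cholesterol synthesis, 0 of 22 tested genes had an unadjusted p under 0.05, and the medians of -0.37 in batch 1 and 0.58 in batch 2 had opposite signs. WT replicate 1 of batch 2 held the lowest score of that batch for both lists, 0.47 (fatty acids) and 0.68 (cholesterol) log2 units under the WT mean of its batch. Without it, the batch 2 median of fatty acid synthesis was 0.27 and that of cholesterol synthesis 0.30, and over both batches they were 0.12 and -0.037. K556R replicate 4 of batch 1 lay 0.567 log2 units under the WT mean of its batch for fatty acid synthesis, and without it the batch 1 median of that list was 0.13, above 0 as in batch 2. Over both batches the fatty acid median was then 0.31 with 9 genes higher at an unadjusted p under 0.05, and without both libraries it was 0.21 with 8. For cholesterol synthesis the batch 1 median without K556R replicate 4 was -0.33, and the median without both libraries was -0.012. Of bile acid synthesis genes, 4 of 16 were lower and 0 higher at an unadjusted p under 0.05, with Cyp8b1, the 12-alpha hydroxylase of cholic acid, at -0.45 (SE 0.14) and Cyp27a1, the sterol 27-hydroxylase, at -0.26 (SE 0.09). The median of that list was -0.12, with 0.049 in batch 1, where 7 of 16 genes stood below 0, and -0.24 in batch 2, where all 16 did.

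**Figure D3:**
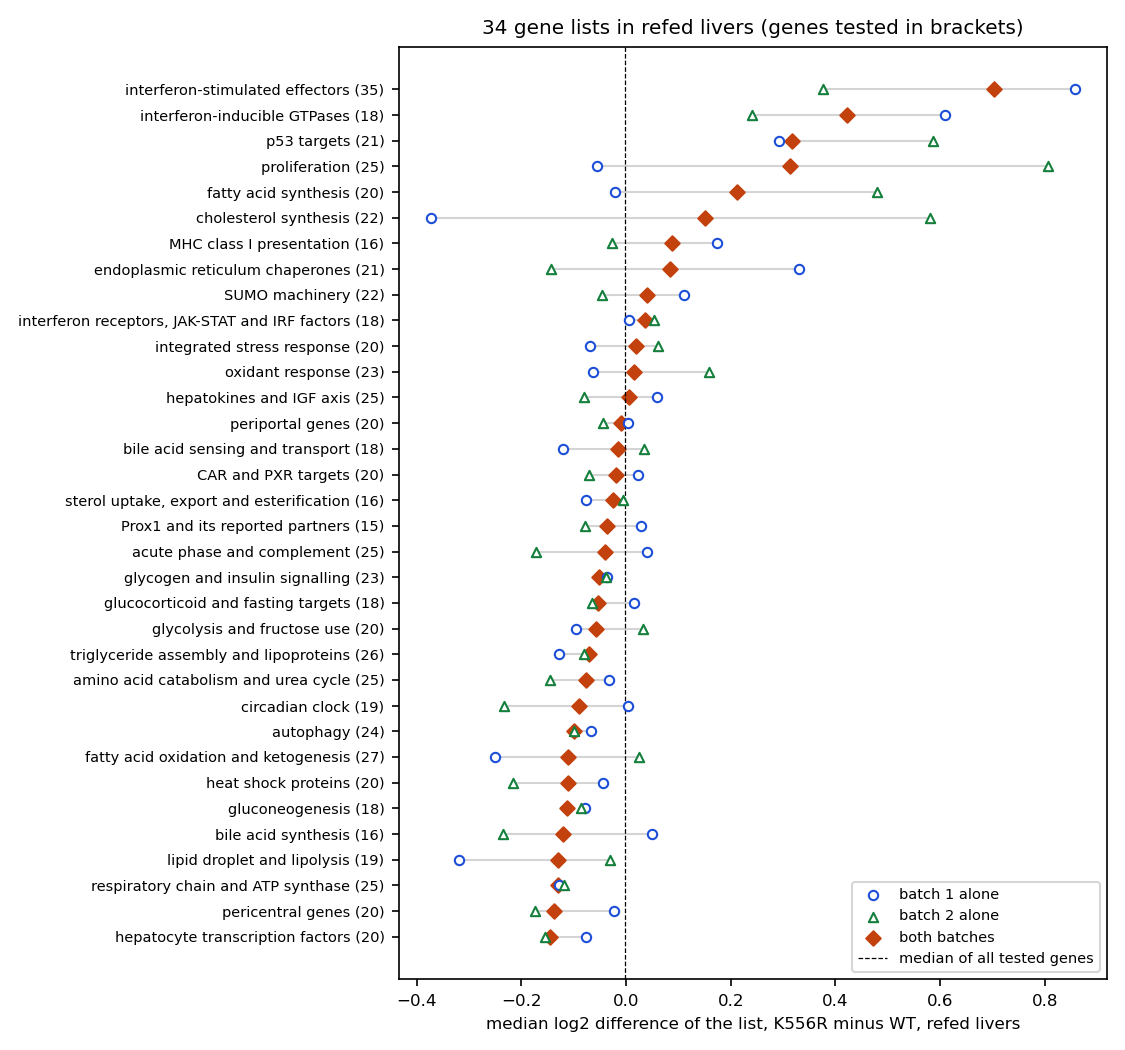
Median log2 difference of K556R minus WT refed livers for 34 pathway lists, over both batches (diamonds), in batch 1 alone (circles) and in batch 2 alone (triangles); the number of tested genes is in brackets and the dashed line is the median over all tested genes. Interferon-stimulated effectors have the highest median at 0.70, and cholesterol synthesis the widest gap between batches, from -0.37 to 0.58.

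Enpep, glutamyl aminopeptidase, which trims angiotensin peptides, was higher in every K556R liver of either batch. It ran from 82.7 through 108 to 117 CPM in K556R and from 71.1 through 81.8 to 93.7 CPM in WT, a difference of 0.34 (SE 0.08, edgeR adjusted p = 0.122, DESeq2 adjusted p = 0.0215). Kif11, the motor that pushes spindle poles apart, was separated in the same way, at 2.13 through 2.69 to 3.99 CPM in K556R and 0.969 through 1.53 to 2.26 CPM in WT. It differed by 0.88 (SE 0.20, edgeR adjusted p = 0.122, DESeq2 adjusted p = 0.0212). Other genes of proliferation stood above 0 in 24 of 25 cases but 3 at an unadjusted p under 0.05, and the median was -0.055 in the first batch against 0.81 in the second. At that level stood 9 without K556R replicate 4 of batch 1 and 1 without WT replicate 1 of batch 2. Ccne2, cyclin E2, was the member separated in both batches, at 0.49 (SE 0.19). The remaining genes named on the higher side were Hap1, a huntingtin-associated protein of vesicle transport, at 0.70 (SE 0.17), and Zfp983, a zinc finger protein, at 0.50 (SE 0.12), both past the DESeq2 threshold.

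Targets of p53, the factor that answers DNA damage, stood above 0 in 20 of 21 cases, 9 of them at an unadjusted p under 0.05, and the median difference was 0.32 (batch 1 0.29, batch 2 0.59). Without the pair of libraries that stood apart 10 reached that level and the median was 0.39. Ccng1, cyclin G1, ran from 40.2 through 55.2 to 76.5 CPM in K556R and from 41.4 through 47.6 to 52.0 CPM in WT, with a difference of 0.28 (SE 0.10). Eda2r, a death receptor of the TNF family, differed by 0.85 (SE 0.31), Ddit4l, an inhibitor of mTOR, by 1.02 (SE 0.37) and Aen, a nuclease, by 0.31 (SE 0.12), at edgeR adjusted p from 0.431 to 0.445. K556R replicate 4 of batch 1 lay 0.594 log2 units under the WT mean of its batch for this list.

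Heat shock genes stood below 0 in 20 of 20 cases, 5 at an unadjusted p under 0.05, and their median was -0.11, with -0.044 in the first batch against -0.22 in the second. WT replicate 1 of batch 2 had the highest score of its batch for the list, 0.359 log2 units over the WT mean, and without it and K556R replicate 4 of batch 1 the median was -0.067, with 3 members above 0 and 3 lower at an unadjusted p under 0.05. Hspa1a, the inducible HSP70, ran from 0.379 through 0.96 to 1.495 CPM in K556R and from 0.671 through 1.54 to 6.79 CPM in WT, a difference of -1.23 (SE 0.33, edgeR adjusted p = 0.23).

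Hepatocyte transcription factors stood below 0 in 18 of 20 cases, 6 of them at an unadjusted p under 0.05, and the median difference was -0.14 (batch 1 -0.08, batch 2 -0.15). Rxra, the shared partner of many nuclear receptors, differed by -0.21 (SE 0.06), Cebpa, which drives liver metabolic genes, by -0.25 (SE 0.10), and Nr1i3, the drug-sensing receptor CAR, by -0.28 (SE 0.12). Foxa1, a pioneer factor, stood at -0.49 (SE 0.20), where 1 WT library reached 75.8 CPM against a WT median of 28.5. Genes of the pericentral zone stood below 0 in 15 of 20 cases, 4 of them at an unadjusted p under 0.05, or 2 without WT replicate 1 of batch 2, and their median was -0.022 in batch 1 and -0.17 in batch 2. Among the 4, Sp5, a direct target of Wnt signals, was lower in every K556R liver of either batch, from 1.11 through 2.15 to 2.88 CPM in K556R and from 2.53 through 3.02 to 4.12 CPM in WT. Its difference was -0.70 (SE 0.23, edgeR adjusted p = 0.381). Of 19 tested clock genes, 3 were lower and 1 higher at that level, with Dbp at -0.54 (SE 0.21), Nfil3 at -0.22 (SE 0.09) and Bhlhe40 at 0.33 (SE 0.14). The clock list had a median of 0.0044 in batch 1 and -0.23 in batch 2. Without WT replicate 1 of batch 2, 1 clock gene was lower and 1 higher.

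**Figure D4:**
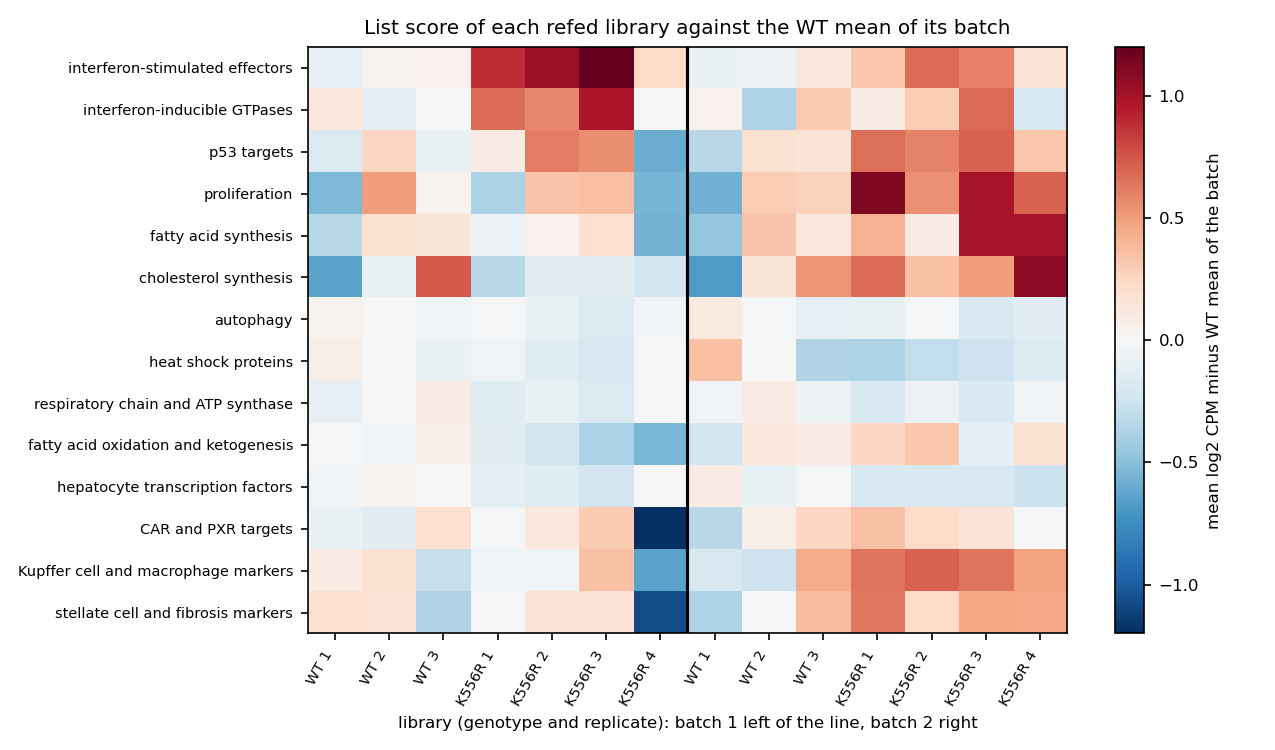
Score of each refed library for 14 lists, as its mean log2 CPM minus the mean of the WT libraries of its batch (colour, clipped at 1.2); columns are libraries by genotype and replicate, with batch 1 left and batch 2 right of the line. Interferon-stimulated effectors are positive in all 8 K556R libraries, lowest in K556R replicate 4 of each batch, and K556R replicate 4 of batch 1 is low in the drug-metabolism and fibrosis lists.

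Markers of other liver cells were measured beside these groups. Kupffer cell and macrophage markers stood above 0 in 21 of 21 cases with a median of 0.27, 0 at an unadjusted p under 0.05, and medians of -0.047 in batch 1 and 0.52 in batch 2. Their summed level ran from 539 to 839 CPM in K556R and from 469 to 694 CPM in WT. Against the WT mean of batch 1 their score stood at -0.056, -0.049, 0.348 and -0.645 in K556R replicates 1 to 4, and without replicate 4 the batch 1 median was 0.05. That replicate was also the lowest K556R library of batch 1 for the interferon-stimulated effectors. Against the WT mean of batch 2 the macrophage score stood at 0.639, 0.707, 0.638 and 0.485 in K556R replicates 1 to 4. In WT replicates 1 to 3 of that batch it stood at -0.193, -0.251 and 0.444, below every K556R liver. Clec4f, which defines Kupffer cells, differed by 0.18 (SE 0.24) and Adgre1, the F4/80 antigen of macrophages, by 0.27 (SE 0.25). Stellate cell and fibrosis markers stood above 0 in 12 of 17 cases (median 0.13, with -0.15 in batch 1 and 0.51 in batch 2, and 0.054 in batch 1 without K556R replicate 4), with Col1a1, collagen I, at 0.25 (SE 0.34) and Lrat, which stores retinol in stellate cells, at 0.30 (SE 0.18). All 7 tested cholangiocyte markers stood above 0 (median 0.42, 0.16 in batch 1 and 0.71 in batch 2), at low levels such as a K556R median of 1.14 CPM for Krt19. Cd3e of T cells had a K556R median of 0.376 CPM, Ly6g of neutrophils at most 1 count in a library, Adipoq of fat cells at most 2, and Prss2 of the pancreas 0. The part of other cell types in the results above was not tested.

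The genotype differences of refed livers were set beside those of the 7 K556R and 8 WT fasted livers, which are other libraries. In the same edgeR fit 16 of 15603 genes passed an adjusted p of 0.05 between genotypes in fasted livers, against 0 in refed livers. In edgeR's test of the difference between the refed and fasted genotype effects 0 genes passed, with 440 at an unadjusted p under 0.05, and DESeq2 called 0. Genes named above were chosen by their refed p, which favours a larger refed value, so the interaction values of these genes are a description. The interferon-stimulated effectors had a median of 0.78 in fasted livers against 0.70 when refed, and the respiratory chain list -0.13 in both. Usp18 differed by 1.24 in fasted livers (edgeR adjusted p = 0.0296) and Rtp4 by 0.85 (edgeR adjusted p = 0.0415). Gabarapl1, Enpep and Pcp4l1 did not pass there (edgeR adjusted p from 0.679 to 0.958). Smaller fasted differences were measured for other genes. Gabarapl1 stood at -0.07 (SE 0.07), with an interaction of -0.32 (SE 0.10, unadjusted p = 0.00436), Enpep at -0.02 (SE 0.08), with an interaction of 0.37 (SE 0.11, unadjusted p = 0.00236), and Pcp4l1 at -0.17 (SE 0.12), with an interaction of -0.44 (SE 0.17, unadjusted p = 0.0124). The edgeR adjusted p of these interactions was 1.00. Of the 15 genes named on the lower side 7 had an unadjusted interaction p under 0.05, and of the 15 on the higher side 2, beside 440 of all 15603 tested genes. The choice by refed p raises such counts, so they too are a description.

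**Figure D5:**
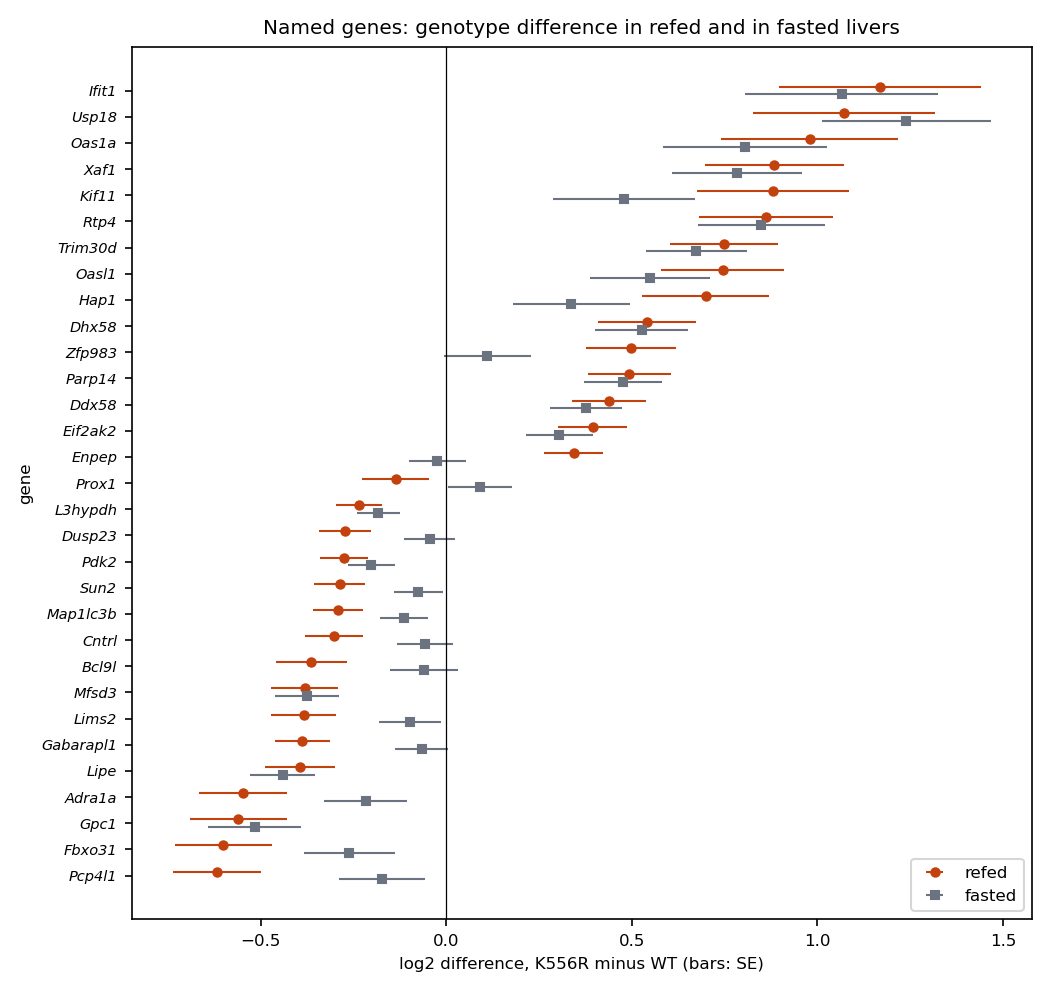
Log2 difference of K556R minus WT for Prox1 and the 30 genes named by rank, in refed (circles) and fasted livers (squares), with bars of 1 SE. Interferon-stimulated genes such as Usp18 (1.07 refed, 1.24 fasted) lie at like values in both states, whereas Gabarapl1 (-0.39 and -0.07) and Enpep (0.34 and -0.02) lie apart; the genes were chosen by their refed p.

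A few genes with extreme values were low or rested on 1 library, and were picked out after their values were seen. Gm5724 (mm10 chromosome 6, 141708118 to 141773810) was counted in all 8 K556R libraries, at 1 to 19 counts. It was counted in 1 of the 6 WT libraries, at 2 counts, and every K556R liver was above every WT liver of its batch. The log2 difference was 3.96 (edgeR adjusted p = 0.0688, DESeq2 adjusted p = 0.0181). Its K556R median was 3 counts, so the size of that difference is uncertain. In the fasted livers, which are other libraries, Gm5724 differed by 6.604 (edgeR adjusted p = 0.000201). Mup13, a major urinary protein gene with near-identical copies that share reads, was at 22400 counts in WT replicate 1 of batch 2, and its median over WT libraries was 64 counts. That library held 22400 of the 22671 counts of all WT libraries, and the difference was -6.49 (edgeR adjusted p = 0.0712).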

How the data were processed

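The table the authors deposited holds raw counts per gene for 29 libraries. Per the submitters' processing notes, the build was mm10 and the tools were TopHat, STAR, STAR-Fusion, HTSeq, edgeR and DESeq2, with no roles given. The annotation release and the strand setting are not given in the sources used here, so overlapping genes and close paralogs are uncertain. The protocols mention no molecular identifiers, so limits set by a count of 0 cover counting error only.

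Genes were filtered with filterByExpr (minimum count 10, total 15), which left 15603 of 54532, scaled by TMM and fitted with edgeR 4.0.16 (R 4.3.3) quasi-likelihood, with a term per genotype and feeding state plus batch (common biological coefficient of variation 0.191, 24 residual degrees of freedom). P-values were adjusted by Benjamini-Hochberg over all tested genes. CPM uses the scaled totals, and log2 CPM a prior count of 2. DESeq2 1.42.0 was an alternative. Positions come from GENCODE M21 and promoters from RefSeq.

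Named are Prox1, the 15 genes per direction with the smallest p (mean log2 CPM of at least 1, same sign in both batches, no Gm, Rik or bare identifier), the members that define a cell type, and the up to 4 smallest-p members per described list. The members and lists were chosen with earlier results of these data known, and other choices such as alternatives are given with their effects in the closing section. Tested on simulated data with this design, the refed comparison found 18% of genes set to a 1.25-fold change and 56% of those set to 1.5-fold. It found 72% of those set to 2-fold and 94% of those set to 4-fold. Its calls numbered 129, of which 9 were false. Refed libraries of one group differed by more than counting error in all 43 pairs compared (chi-square over its degrees of freedom at least 12.0). One gene that the naming rule would give is not reported here.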

Additional observations from a re-analysis of the deposited data

Results flagged for a closer look

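A library far from the rest of its group, by Dixon's ratio on log2 values, appeared for 8 list scores (the mean log2 CPM of a list's tested genes) among 154 groups of values tested, or 5.19%, where chance gives about 5%. K556R replicate 4 of batch 1 was the farthest library in 6 of them. It was lowest of the 8 K556R libraries for CAR and PXR targets (4.81, against 6.06 to 6.44 in the other 7), for the oxidant response (6.74, against 7.40 to 7.55), for stellate cell and fibrosis markers (2.99, against 4.05 to 4.45), for Kupffer cell and macrophage markers (3.05, against 3.64 to 4.16) and for lipid droplet and lipolysis genes (5.87, against 6.39 to 6.72). It was highest for the pancreatic acinar list (5.08, against 3.17 to 3.80), in which Cela1 was the one tested gene and Prss2 and Cpa1 were at 0 counts. WT replicate 1 of batch 2 was lowest of the 6 WT libraries for glycogen and insulin signalling (5.38, against 5.72 to 5.82). WT replicate 3 of batch 2 was highest for plasmacytoid dendritic cell and interferon gene markers (2.82, against 2.38 to 2.55), of which 4 were tested.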

How the results depend on the processing

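Calls higher and lower in K556R numbered 0 and 0 in the reported fit, and likewise with refed libraries only, RLE size factors, robust empirical Bayes or no batch term. DESeq2 gave 31 and 13, no filter on low counts 7 and 3, batch 1 alone 5 and 0 and batch 2 alone 0 and 7. Leaving out 1 library gave 0 to 15 higher and 0 to 5 lower; the largest numbers came without K556R replicate 4 of batch 1, where 794 genes stood higher at an unadjusted p under 0.05. Leaving out WT replicate 1 of batch 2 gave 1 higher, and leaving out K556R replicate 2, WT replicate 2 or WT replicate 3 of batch 2 gave 1, 2 or 1 lower. Without both K556R replicate 4 of batch 1 and WT replicate 1 of batch 2 there were 3 and 0, and with refed libraries only and without both, chosen after seeing the data, 31 and 3. Whether repeat numbers pair the libraries within a batch was not settled, and the reported fit does not pair them. In batch 1 deviations of same-numbered libraries had r of 0.164, 0.144 and 0.024, against at most 0.017 for unlike numbers. In batch 2 they had r of -0.36, 0.099 and 0.17, against -0.32 to 0.21 for unlike numbers. A replicate block on refed libraries gave 9 higher (among them Usp18, Ifit1 and Oas1a) and 0 lower with 5 residual degrees of freedom. The genes separated in both batches numbered 26 higher and 35 lower, 27 and 31 with RLE, and 31 to 69 higher and 38 to 92 lower with 1 library left out, since fewer libraries overlap less. The interaction gave 0 calls in each alternative. For single named genes, 688 of 744 values kept direction and side of the threshold, 55 passed it in an alternative, and 1 turned: Prox1, at a log2 difference of 0.023 in batch 1 alone. None of these genes passed in the reported fit, so keeping the side means failing again. Apart from Prox1 they were named for the same sign in both batches, so this tally does not measure robustness. Of the values for counts of genes, 35 of 83 moved beyond a set margin. List medians moved by more than the spread between libraries in 17 of 1104 cases. That spread is 1 SD of a list's score between libraries of 1 genotype and batch. Many alternatives leave out 1 library or change 1 setting and can hardly move a median that far, so this tally does not measure robustness either. Depth limits low genes: a count of 0 allows up to 0.11 CPM in the deepest and 0.209 CPM in the shallowest refed library.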
